A study of Drosophila melanogaster with 2 samples.

Results

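The genes CG11050, CG32772, Tlk, CG32486, norpA and Lk6 held the strongest CG1620-eGFP peaks that lay inside a gene and away from every annotated transcription start site (TSS). These 6 genes were selected on a measured value. Each holds a peak of the authors' list thresholded by the irreproducible discovery rate (IDR, a measure of agreement between replicates). Its signal value is about 900 or more. Its summit lies inside the gene and more than 500 bp from any TSS. The genes are 6 of 13945 protein-coding genes, and their peaks are 6 of 743 peaks inside a gene and more than 500 bp from a TSS, in a list of 3894 IDR peaks. These 3894 are the strongest candidates of the pooled replicates. Place on the list therefore follows pooled signal and is no verdict on the agreement of each single peak. Of the 3894, 3747 have an overlapping candidate in both replicates. The weakest of the 6, in Lk6, had a signal of 897. The next peaks below it had signals of 741 in CG9663, 714 where HmgD and HmgZ overlap and 632 in CG12769. Because the signal chose the 6 peaks, their strength is described here and not tested.

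The measurement was chromatin immunoprecipitation with sequencing (ChIP-seq). Chromatin of whole adult female Drosophila melanogaster, of unknown age, was sheared by sonication to a labelled size range of 200 to 800 bp and precipitated with an antibody against GFP. All flies came from 1 transgenic line that stably carries CG1620 with GFP fused to its C-terminal end, and the 2 libraries are separate biological samples of that line, numbered 2 and 3 in the labels. There was 1 group and no second genotype, treatment or age, so no condition was compared, and the list values do not give the read depth.

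A ChIP-seq peak marks a stretch of DNA that was recovered with the tagged protein, and its summit is the position of highest signal. In a fly gene, promoters lie at the TSS, and the first introns, which are often the longest, are a common place for enhancers and other regulatory DNA. A whole-fly sample averages over all tissues, so a peak does not say in which cells the protein was bound. Tlk encodes the Tousled-like kinase, a protein kinase that acts in chromatin assembly during DNA replication. The phospholipase C encoded by norpA carries the light signal in fly photoreceptors. Lk6 encodes a kinase that phosphorylates the translation initiation factor eIF4E. CG11050, CG32772 and CG32486 carry annotation symbols and no other name in the files and annotation used here.

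The DNA under the 6 summits is printed first, because the position of the summit is where the peak was strongest and because a short sequence recurs there. Each line gives 50 bp on either side of the IDR summit on the plus strand of dm6 (RefSeq assembly GCF_000001215.4 of the same build). Capitals mark every TTAGTT or its reverse complement AACTAA, the only 6-base sequence that all 6 windows share.
CG11050, chr2L:6612659-6612759: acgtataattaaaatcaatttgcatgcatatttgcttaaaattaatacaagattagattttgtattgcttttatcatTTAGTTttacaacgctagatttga
CG32772, chrX:4910320-4910420: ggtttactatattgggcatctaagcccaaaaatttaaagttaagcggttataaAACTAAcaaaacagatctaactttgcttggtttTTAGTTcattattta
Tlk, chrX:3742179-3742279: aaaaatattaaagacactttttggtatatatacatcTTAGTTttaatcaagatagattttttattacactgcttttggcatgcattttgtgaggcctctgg
CG32486, chr3L:3060753-3060853: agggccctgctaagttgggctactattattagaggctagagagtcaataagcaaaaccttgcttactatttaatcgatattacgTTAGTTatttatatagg
norpA, chrX:4324944-4325044: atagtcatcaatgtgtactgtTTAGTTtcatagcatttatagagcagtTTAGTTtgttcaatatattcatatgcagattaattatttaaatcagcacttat
Lk6, chr3R:11760999-11761099: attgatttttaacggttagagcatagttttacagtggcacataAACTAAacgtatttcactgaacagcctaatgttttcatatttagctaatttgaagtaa

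All 6 peaks were near the top of both replicate lists and of the pooled list. Signal is the authors' peak-caller value, and the lists of replicate 2, replicate 3 and the pooled data were not scaled to each other, so ranks are given beside the signals. The CG11050 peak had a signal of 972 in replicate 2 (rank 3 of 30000 candidates), 297 in replicate 3 (rank 10) and 1268 in the pooled data (rank 5). The CG32772 peak had 907 in replicate 2 (rank 7), 331 in replicate 3 (rank 6) and 1232 in the pooled data (rank 6). For the Tlk peak the signals were 951 in replicate 2 (rank 5), 282 in replicate 3 (rank 14) and 1230 in the pooled data (rank 7). These 3 peaks were the strongest of the 6 in the pooled data, although the CG32486 peak outranked Tlk in replicate 3. The CG32486 peak reached 726 in replicate 2 (rank 11), 295 in replicate 3 (rank 11) and 1019 in the pooled data (rank 12). The norpA peak reached 699 (rank 13), 272 (rank 15) and 961 (rank 13) in the same order. The Lk6 peak reached 639.9 (rank 18), 257 (rank 20) and 897 (rank 19). All 6 peaks were thus within the 20 strongest candidates of each replicate, and the signal was higher in replicate 2 than in replicate 3 for every one of them.

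The ratio of the replicate 2 signal to the replicate 3 signal ran from 2.46 in CG32486 to 3.37 in Tlk, with a median of 2.66. Over the 3747 IDR peaks with a partner in both replicates the median ratio was 2.77, with quartiles of 2.17 and 3.68. The 6 ratios all lay within those quartiles, so the higher replicate 2 values were shared with the list as a whole. The 2 replicate summits were 1 bp apart in Lk6, 2 bp in CG32486, 3 bp in Tlk, 20 bp in CG11050 and in norpA, and 35 bp in CG32772. Their median of 11.5 bp compares with 27 bp over all IDR peaks and with 7 bp over the other 19 of the 25 strongest peaks. The 6 peaks were 292 to 386 bp wide, against a median of 400 bp over all IDR peaks and 347 bp over those 19.

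**Figure D1:**
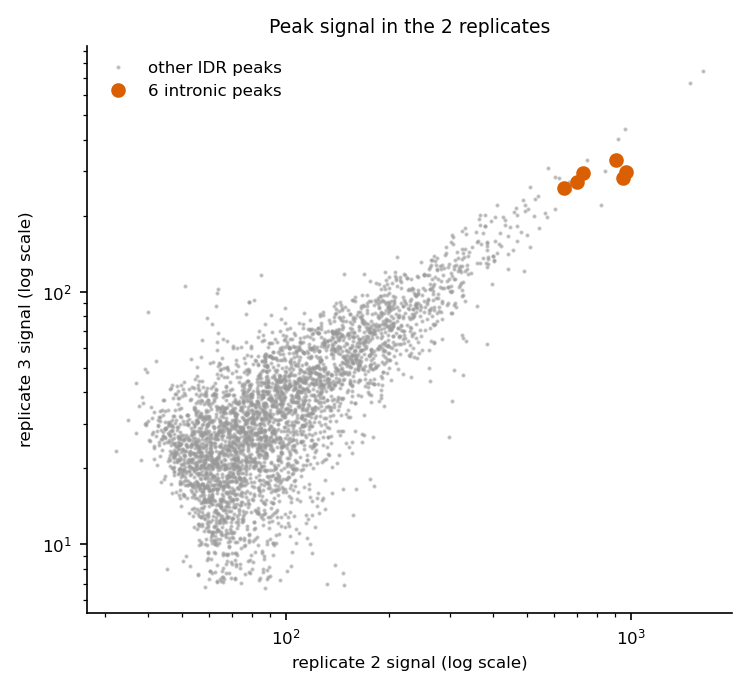
Signal of the 3747 IDR peaks with a partner in both replicates, in replicate 2 (x axis) and replicate 3 (y axis), both as the authors' unscaled peak-caller value on a log scale; grey points are other IDR peaks and orange points the 6 intronic peaks. The 6 peaks sit at the upper end, between 639.9 and 972 in replicate 2 and between 257 and 331 in replicate 3, in the main cloud's diagonal.

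CG32772, Tlk and norpA are on the X chromosome, which carries 21.7% of all IDR peaks and 29.9% of the other 737 peaks inside genes and away from a TSS. No summit lay in an exon of any transcript of its gene, and no other gene spanned a summit. The 6 introns differed widely in length. Each was intron 1 or 2 of the transcripts that span the summit. The summit lay after the start codon in every gene but norpA.

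CG11050 (FBgn0031836, chr2L:6611011-6617117, plus strand) held its peak at chr2L:6612516-6612901 with the summit at 6612709. The summit lay in intron 2 of all 3 annotated transcripts, and that intron is only 140 bp long (6612641 to 6612780). The 386-bp peak therefore reached into both neighbouring exons. It covered 246 bp of exon, of which 196 bp are coding sequence, and was the only one of the 6 peaks to touch an exon. The summit was 1022 bp downstream of the nearest TSS, that of CG11050-RC, and after the start codon of all 3 transcripts.

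CG32772 (FBgn0052772, chrX:4909102-4915161, plus strand) held its peak at chrX:4910205-4910560 with the summit at 4910370, which is 1268 bp downstream of the gene's first TSS. The summit was in a 1054-bp intron that is intron 1 or intron 2 in 2 of the 4 transcripts. The other transcripts start 2011 bp downstream of the summit and do not include it.

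Tlk (FBgn0283657, chrX:3720007-3789770, plus strand) is the longest of the 6 genes at 69764 bp. Its peak lay at chrX:3742054-3742399 with the summit at 3742229. The summit was in intron 1 or 2 of 8 of the 14 annotated transcripts, and those introns are 41450 to 60007 bp long. The nearest TSS, 2332 bp upstream, is that of Tlk-RK. The other 6 transcripts start downstream of the summit, so for them the peak is upstream DNA.

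CG32486 (FBgn0266918, chr3L:3055908-3070839, minus strand) has 1 annotated transcript. Its peak lay at chr3L:3060617-3060976 with the summit at 3060803, in intron 1, which is 12037 bp long. The summit was 10036 bp downstream of the gene's own TSS and 5724 bp from the nearest TSS of any gene, that of CG16753, the farthest of the 6. The same intron holds an annotated copy of the Tirant retrotransposon, 8527 bp long (chr3L:3061338-3069864), whose nearer end is 535 bp from the summit. In the other 5 genes the nearest annotated transposon was 11246 bp away or more. The one at 11246 bp, a copy of 17.6 (chrX:3753475-3760972), also lies in the introns that hold the Tlk summit.

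norpA (FBgn0262738, chrX:4322626-4365408, plus strand) held its peak at chrX:4324823-4325149 with the summit at 4324994, 1385 bp downstream of the nearest norpA TSS. The summit lay in intron 1 of 4 of the 6 transcripts. That intron is 2192 to 9640 bp long, depending on the transcript. It was the only one of the 6 summits to lie upstream of the start codon in every transcript that spans it. The other transcripts start 22924 bp downstream of the summit.

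Lk6 (FBgn0017581, chr3R:11750931-11764457, minus strand) held its peak at chr3R:11760904-11761195 with the summit at 11761049. In transcript Lk6-RA the summit was in intron 1, which is 6991 bp long, at 3408 bp downstream of the TSS. In Lk6-RB, the other transcript, it lay 970 bp upstream of the TSS. The Lk6 peak is therefore intronic in 1 of 2 transcripts and upstream of the other. Over the 6 genes the median distance from summit to nearest TSS was 1326 bp, and it ranged from 970 to 5724 bp.

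**Figure D2:**
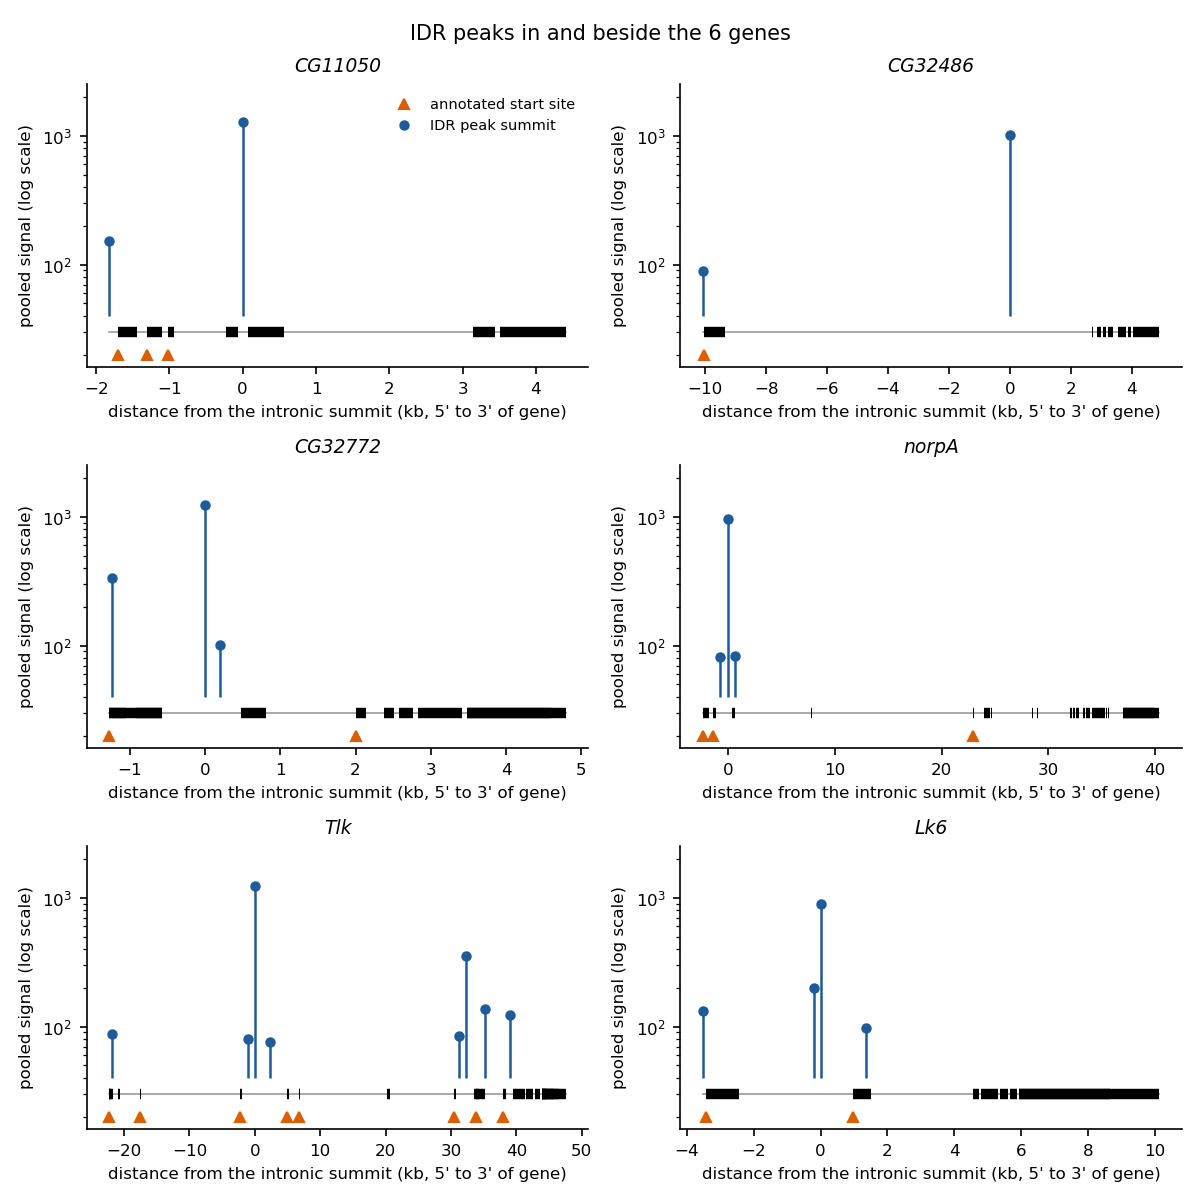
Maps of the 6 genes to scale, with distance from the intronic summit in kb (x axis, 5′ to 3′ of each gene) and pooled signal on a log scale (y axis). Black boxes are exons of any transcript, triangles annotated start sites, and points IDR peak summits inside the gene or within 500 bp of it; stems only join a point to the gene line. In each gene the peak at 0 is the highest, and Tlk holds 8 IDR peaks of which a second group lies about 32 kb downstream.

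The 6 genes held 19 IDR summits in all. CG11050 and CG32486 held only their intronic peak, CG32772, norpA and Lk6 held 3 each, and Tlk held 8. Another 3 IDR summits lay just outside CG11050, CG32486 and Lk6, each within 500 bp of the gene's own TSS. A peak more than 500 bp from any TSS was present in 3.87% of the 13945 protein-coding genes, and having one is part of how the 6 genes were chosen. The genes are long, at 6060 to 69764 bp against a median of 2166 bp over protein-coding genes. Per kb, they held 0.124 IDR summits against 0.0291 genome-wide, a difference to which the chosen peaks contribute directly.

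A promoter peak, with its summit within 500 bp of the gene's own TSS, was present in 5 of the 6 genes, against 26.3% of protein-coding genes. The 6 genes have from 1 start position in CG32486 to 8 in Tlk, and genes with more start positions have more sequence that counts as promoter. Every promoter peak was weaker than the intronic peak of its gene. The intronic peaks were chosen for high signal, so this direction was largely fixed, and the ratios given below are descriptions. In CG32772 the promoter peak was at 30 bp from the TSS, with 269 in replicate 2, 62.7 in replicate 3 and 336 in the pooled data. This was the strongest promoter peak of the set, and the intronic peak was 3.66 times as strong in the pooled list. The CG11050 promoter peak, 120 bp from the TSS and just outside the gene, had 111 in replicate 2, 32.25 in replicate 3 and 152 in the pooled data, so the intronic peak was 8.33 times as strong. Lk6 had a promoter peak at each of its 2 start sites. The one 104 bp outside the gene, at Lk6-RA, had signals of 116 in replicate 2, 22.6 in replicate 3 and 133 in the pooled data. The other, 381 bp from the Lk6-RB TSS, had 85.0, 19.98 and 97.8 in the same order. Both were far below the intronic signal of 897, by 6.76 times for the stronger.

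Like the Lk6-RB promoter peak at rank 2502, the remaining promoter peaks were in the weaker part of the IDR list. They were at rank 2858 in CG32486 and 2888 in Tlk, and the weakest peak of that list had a signal of 70.0. The CG32486 promoter peak, 37 bp from the TSS, had 58.7 in replicate 2, 31.5 in replicate 3 and 88.7 in the pooled data. The Tlk promoter peak, 397 bp from the first TSS, had 71.5 in replicate 2 and 88.2 in the pooled data, and no replicate 3 candidate overlapped it by 50% or more. In norpA no promoter peak was in the IDR list. Its strongest promoter candidate had a pooled signal of 69.4, at rank 3935 of the pooled candidates. This value was just under the weakest IDR peak, so the absence of a norpA promoter peak from the list rests on a small margin. The intronic peak was 11.5 times as strong as the promoter peak in CG32486, 13.95 times in Tlk, and 13.8 times the promoter candidate in norpA.

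Tlk held the most peaks of the 6 genes, and only 2 protein-coding genes held more IDR summits. It is also longer than 98.7% of protein-coding genes, and its 0.115 IDR summits per kb were below the 0.124 of the 6 genes together and the 0.495 of CG32772. Next to the intronic peak, 2 weak peaks lay at 992 bp upstream and 2402 bp downstream, with pooled signals of 79.5 and 75.9. The first had 56.9 in replicate 2 and 24.9 in replicate 3, and the second had 65.7 in replicate 2 and no replicate 3 partner. A second group of 4 peaks began 31288 bp downstream of the intronic peak. Its strongest, 32232 bp downstream, had 269.8 in replicate 2, 74.1 in replicate 3 and 352 in the pooled data (rank 211). The others had pooled signals of 84.0, 137 and 124. The peak of 137 lay 36 bp from the start of the microRNA gene mir-4962, and like the peak of 124 it was relatively weak in replicate 3, with replicate ratios of 7.62 and 7.44. The strongest peak in Tlk was 3.50 times the second.

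In norpA, Lk6 and CG32772 the intronic peak also had weak neighbours, and some overlapped it. In norpA, peaks 749 bp upstream and 620 bp downstream had pooled signals of 82.1 and 82.9. Their replicate signals were 58.8 and 22.7 for the first, and 65.5 and 18.9 for the second. In Lk6, a peak with its summit 206 bp from the intronic summit overlapped it, with 180.1 in replicate 2 (rank 507), 16.95 in replicate 3 (rank 4312) and 198 in the pooled data. Its replicate ratio of 10.6 was well outside the quartiles of the list. In CG32772, a peak 199 bp from the intronic summit also overlapped it, with a pooled signal of 100.5, and neither replicate had a separate candidate there. These neighbours share part of their interval with the strong peak beside them, and whether they are separate from it was not tested.

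The candidate lists, which also hold peaks below the IDR threshold, gave 76 pooled summits in the 6 genes, 78 in replicate 2 and 57 in replicate 3. Tlk held 37 of the 76, Lk6 15, norpA 12, CG11050 5, CG32772 4 and CG32486 3. Together this was 0.496 per kb of these genes against 0.224 per kb of the genome. The genes differed, from 0.201 per kb in CG32486, below the genome value, and 0.28 in norpA to 1.11 in Lk6. In CG11050 and CG32486 the second-strongest candidate inside the gene was 34.3 and 26.7 times weaker than the intronic peak. Within the gene bounds a single peak thus rose above low candidates. The promoter peaks of these genes, with pooled signals of 152 and 88.7, have summits just outside those bounds and are not in the ratios.

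The 6-mer TTAGTT, or AACTAA on the other strand, occurred in 6 of 6 summit windows, against 9.17% of the windows of all 3894 IDR peaks. The 6-mer was found by searching these same 6 windows, which contain 411 different 6-mers counting both strands as one. The count is therefore a description and carries no test. Extended by 1 base to TTAGTTT, it occurred in 5 of 6 windows, against 4.01% of IDR windows. CG32486 was the exception, with TTAGTTA. The match nearest the summit was centred 0.5 bp away in norpA, 4.5 bp in Lk6, 5.5 bp in CG32772, 11.5 bp in Tlk, 29.5 bp in CG11050 and 36.5 bp in CG32486. CG32772 and norpA had a second match inside the window, and CG11050 had one 55.5 bp from its summit, just outside. The strand of the nearest match was that of the gene in 4 genes and the opposite one in CG32772 and CG32486.

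The 6-mer was chosen because all 6 windows hold it, so lower shares in other sets were fixed by the search and are descriptions. It was in 2 of the other 19 of the 25 strongest peaks (10.5%), in 12.0% of ranks 26 to 100, in 40 of the 400 peaks of the next ranks up to 500 and in 8.63% of the 1947 weakest IDR peaks. Among the other peaks more than 500 bp from a TSS it was in 10.5%, and among the 3894 weakest pooled candidates in 5.80%. The windows of the 6 peaks are poor in G and C, and among the other 1400 IDR windows within their range of composition the share was 13.3%. At 300 bp to either side of the summits none of the 6 windows held it, against 6.63% and 7.58% of IDR windows. With 6 windows, finding none does not set the 6 peaks apart from these shares. The 6-mer had also been picked from the summit windows alone. No 7-mer was in all 6 windows, and 1 of 503 was in 5.

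**Figure D3:**
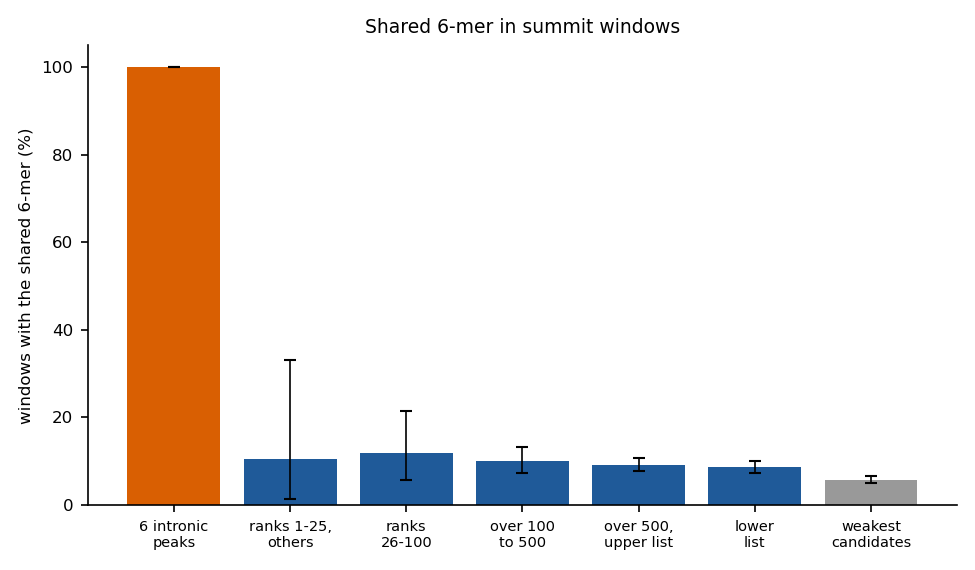
Share of summit windows (50 bp on either side) that hold the shared 6-mer on either strand (y axis, percent), for the 6 intronic peaks, for the other IDR peaks by rank of pooled signal (upper and lower list are the stronger and weaker parts of the list), and for the weakest pooled candidates. Error bars are exact (Clopper-Pearson) 95% binomial intervals that cover counting error only, and the 6 peaks have none because the 6-mer was found in their own windows; the other bars lie between 5.80% and 12.0%.

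The sequence under the 6 summits was rich in A and T. G and C made up 22.8% of the CG11050 window, 28.7% in CG32772 and in Tlk, 35.6% in CG32486, 25.7% in norpA and 29.7% in Lk6. Their median of 28.7% compares with 39.6% over all IDR peaks, 30.7% over the other 19 of the 25 strongest and 46.5% over the weakest candidates. Low G and C content at the summit was thus common to the strongest peaks and not particular to these 6. In bins of 50 bp, the median of the 6 peaks rose from 30% and 26% on either side of the summit to 48% and 49% in the next bins out. Over the other 94 of the 100 strongest peaks the same bins had medians of 30% and 32%, then 39% and 40%. The step from centre to flank was present in both sets, and the flanks of the 6 peaks had the higher values.

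The G and C bases of the flanks included short runs of C. The strip from 50 to 75 bp beyond each summit, towards higher coordinates, is printed because a run of 3 or more C, in capitals, recurs there. All are plus strand of dm6, as above.
CG11050, chr2L:6612759-6612784: aataaCCCacatattttttcagtgca
CG32772, chrX:4910420-4910445: aaacaattaccaaataaCCCCttttt
Tlk, chrX:3742279-3742304: gcaaCCCtgctgctagtcgctctctc
CG32486, chr3L:3060853-3060878: gcttaggCCCCCtcgctgcactttgg
norpA, chrX:4325044-4325069: tccgtctgcacaaaaaggCCCCactg
Lk6, chr3R:11761099-11761124: aacaagttatttttctttcagtgcag

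Such a run was present in 5 of the 6 strips, centred 55.0 to 69.5 bp from the summit, and in Lk6 the nearest was centred 83.0 bp away. Over all IDR peaks, 14.15% of these strips held CCC on the plus strand, and over the other 94 of the 100 strongest peaks 27.7% did. Since the choice of strand is arbitrary, the mirror arrangement, GGG at 50 to 75 bp towards lower coordinates, was counted as the same. Either form was present in 5 of the 6 peaks, in 40 of the other 94 strong peaks (42.6%) and in 24.7% of all IDR peaks. The reverse orientation was present in 0 of the 6 peaks, in 14.9% of the 94 and in 20.2% of all. The strips were chosen after the sequences had been examined, so these shares are descriptions. The shares are also not matched for base composition. In the bin from 50 to 99 bp the median G and C content was 49% in the 6 peaks and 40% in the 94. A longer C-rich sequence, AACCCCC, was in 0 of the 6 summit windows, against 0.77% of IDR windows. It was in 2 of the other 19 of the 25 strongest peaks and in 5.33% of ranks 26 to 100. With 6 windows, a count of 0 does not set the 6 peaks apart from any of these shares.

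**Figure D4:**
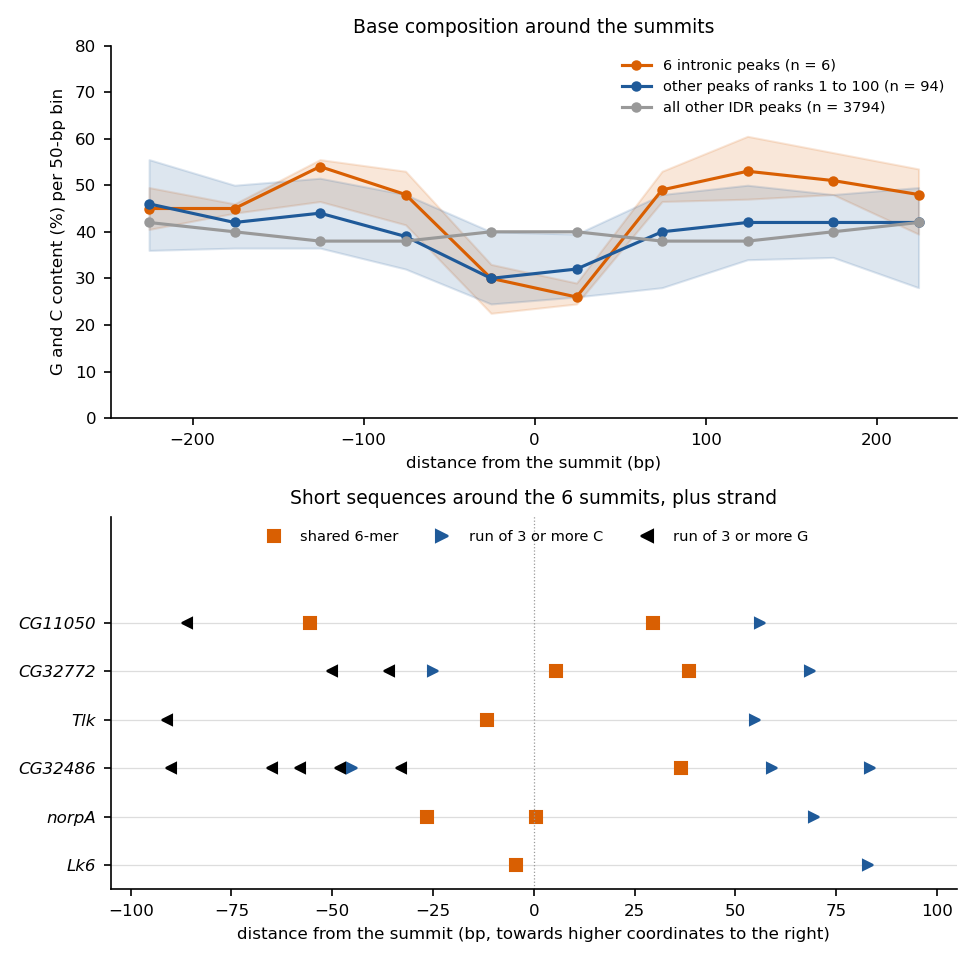
Upper panel: G and C content in percent (y axis) per 50-bp bin against distance from the summit (x axis), as medians with quartile bands for the 6 intronic peaks and the other 94 of the 100 strongest, and medians alone for the other 3794. The centre falls to 26% to 30% in the 6 peaks while the 3794 stay near 40%. Lower panel: each row is a gene, with the shared 6-mer (squares) and runs of 3 or more C or G on the plus strand (triangles) within 100 bp of the summit.

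Short motifs of known Drosophila factors were searched on both strands in the 6 windows, and matches were few. TATAAA, the TATA box, was in 3 windows, those of CG32772, CG32486 and norpA, against 14.9% of IDR windows. TATAAA holds only A and T, in which the 6 windows are rich, and that share is not matched for base composition. TGCATA, part of the Su(Hw) insulator site, was in CG11050 and norpA, against 7.42%. CGATA, bound by BEAF-32 and contained in the DRE sequence TATCGATA, was in CG32486 alone, against 25.9%. GAGAG of the GAGA factor was also in CG32486 alone, against 11.5%, CANNTG in norpA alone, against 39.6%, and TCAGT of the initiator in Lk6 alone, against 17.8%. None of the windows held TATCGATA. Searches for GGTCACAC of core promoters, the E-box CACGTG and GCCAT of Pho found no match. The same was true of AGGNGGC of CTCF, TGACTCA of AP-1 and CAGGTAG of Zelda, and of CCCCC. A match is a description of the letters in the window and not a binding site.

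Beyond these short matches the 6 windows were not alike as a set. Local alignment of all 15 pairs, on both strands, gave a median score of 16, the same as for the 6 windows against all other IDR windows. The pair CG11050 and Tlk scored 29, above the 99th percentile of 24, and 0.18% of IDR windows scored as high against each of them. It is the highest of 15 pairs, while the percentile refers to a single pair. The comparison is also not matched for base composition. G and C made up 22.8% and 28.7% of these 2 windows, against a median of 39.6% over all IDR windows. Every other pair scored 21 or less. No run of 36 bp from any of the 6 peaks occurred elsewhere in the genome, on either strand, so reads from these peaks had no exact second copy at that length.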

How the data were processed

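Peak lists on build dm6 were used: candidates of replicate 2, of replicate 3 and of the pooled replicates (30000 each), and the 3894 peaks thresholded by IDR, per the labels and file descriptions. The signal column holds the authors' deposited peak-caller value for chromatin against 1 control. Which caller, aligner and IDR threshold were used is not stated in the labels or headers. The dm3 versions of the lists were left out. No read counts are given, so the depth is unknown.

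A summit was placed in a gene by the Ensembl release 115 annotation, and its distance was measured to 22860 start positions, with mature microRNA ends left out. A peak's replicate partner was the strongest candidate overlapping it by 50% or more of the shorter. Summit windows were 101 bp of the RefSeq dm6 sequence. Motifs were counted on both strands, and local alignments used match 2, mismatch -3, gap open -6 and extension -2. Intervals are exact binomial. Python 3.11.15, numpy 2.4.6, pandas 2.3.3, scipy 1.17.1 and Biopython 1.88 were used, and the counting steps were tested on simulated data. The 6 genes, the motif list and the measures were chosen with earlier results of these data known. The genes named are the 6, the gene of the nearest TSS and those of the next 3 peaks below the threshold.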

Additional observations from a re-analysis of the deposited data

How the results depend on the processing

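Of 38 alternative settings over 11 results, 33 left the value within its limit: 1.5 times for a count, 1 SD over the 6 peaks for a median. Some limits could hardly be passed. For the distance to a TSS the SD was 1835 bp, more than the median itself. The ranks of the 6 peaks in a replicate partly follow from their choice. Among the settings that passed their limit, the stronger 1947 IDR peaks left 11 peaks in the 6 genes, and 3 promoter peaks. Dividing each replicate's signals by the median of its 3894 strongest candidates moved the median replicate ratio from 2.66 to 0.945, since that median was 2.81 times higher in replicate 2. A window of 100 bp either side raised the median G and C content to 37.3%, and 25 bp either side left no 7-mer shared by 5 windows, a count of 0. With 1 replicate left out, the 3894 strongest candidates of the other took the place of the IDR list. They gave 14 to 20 summits in the genes and 5 to 6 promoter peaks. The full candidate list of 1 replicate gave 57 to 78 summits in the genes. The median distance to a TSS was then 1338 to 1346 bp, the G and C content 29.7% to 30.2%, and the shared 7-mers stayed at 1. TTAGTT was in 4 of 6 windows at 25 bp either side and in 6 of 6 under the other settings. Those settings, and start sites of RefSeq, which gave the same 1326 bp, were added after seeing the data. No paired analysis was possible because there is 1 group. Signals have no read depth behind them, so peaks just under the threshold, such as the norpA promoter candidate, cannot be placed firmly.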
